A study of Arabidopsis thaliana with 4 samples.

Results

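The genes described here are 7 nuclear genes for mitochondrial amino acid breakdown and for the electron carriers that serve it: IVD, MCCA, MCCB, ETFQO, ETFBETA, D2HGDH and AT5G38710. Each is read by 1 probe set, 7 in all out of 22746 that are not controls. They were chosen by name with their signals on these same arrays already known, so every value below is a description and none is a test. Whole 7-day-old seedlings of Arabidopsis thaliana were compared on 4 Affymetrix arrays, 1 per group. WT is the Columbia ecotype without a transgene, and emf2 is a mutant of EMBRYONIC FLOWER 2, a subunit of Polycomb repressive complex 2. The group transWT is the wild type with 35S::BoEMF2.1, a Brassica oleracea gene under a strong constitutive viral promoter, and rescued emf2 is the mutant with the same transgene. All seedlings grew at 21 °C in days of 8 h light and 16 h dark on agar with 1.5% sucrose. Both transgenic groups grew with hygromycin (20 mg/mL per the labels, a high value whose unit could not be checked) and the other two without it, so transgene and hygromycin cannot be told apart. The labels do not give the emf2 allele, the number of transgenic lines or the number of seedlings per sample. With 1 array per group there is no replicate check of any difference.

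Leucine is first stripped of its amino group and then oxidised in the mitochondrial matrix. Isovaleryl-CoA dehydrogenase (IVD) acts early in that chain, and methylcrotonyl-CoA carboxylase, a biotin enzyme of a biotin-carrying alpha subunit (MCCA) and a beta subunit (MCCB), acts directly after it. IVD and D-2-hydroxyglutarate dehydrogenase (D2HGDH) pass their electrons to the electron transfer flavoprotein, a dimer of ETFALPHA and ETFBETA, and ETFQO hands them on to ubiquinone in the respiratory chain. In plants this route is known for its use when sugar is short, as in prolonged darkness, when protein is burned in place of carbohydrate. AT5G38710 was put with amino acid breakdown by the choice of members; the annotation tables used here give it no gene name, and no role is given to it below.

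Signals are MAS5 intensities on a linear scale. A signal of 87.6, the 40th percentile of all 22746 probe sets over the 4 arrays, served as the floor: 6 of the 7 genes lay above it on every array, and AT5G38710 on 3 of 4. Differences are ratios between 2 arrays, and a gene was counted as higher or lower from 2-fold on. From 43 other genes with several probe sets, the error of a log2 ratio (SD) was estimated at 0.27 in emf2 over WT, 0.33 in transWT over WT, 0.33 in rescued emf2 over emf2, 0.38 in rescued emf2 over WT and 0.35 in rescued emf2 over transWT. This error comes from probe sets that disagree and holds no variation between plantings. It may be too small for genes near the floor, such as AT5G38710. A gap called beyond the error is larger than this SD, which noise alone can often exceed. The arrays of the transgenic groups also stood apart in added control RNAs: the median of 4 poly-A control probe sets was 1.98-fold that of WT in transWT, 1.04-fold in emf2 and 2.40-fold in rescued emf2. For 9 hybridization control probe sets it was 1.22-fold, 1.1-fold and 1.27-fold. The leaf antenna genes LHCB4.1 and LHCB4.2 and the root beta-glucosidase PYK10 (15178 to 17946) were bright on all 4 arrays. LHCB4.1 had signals of 18116 for WT, 22198 for transWT, 13343 for emf2 and 24754 for rescued emf2. For LHCB4.2 they were 14945, 21047, 8746 and 21125 in the same order. Both antenna genes were thus lowest in emf2 and higher on both transgenic arrays than in WT. The part of this in the results below was not tested. The root hair expansins differed between arrays: EXPA7 had signals of 262 for WT, 189 for transWT, 699 for emf2 and 334 for rescued emf2, and EXPA18 of 335, 251, 1404 and 473 in the same order, so both were highest in emf2; their part in the results below was not tested. AMS of the anther and PAP85 of the seed were below the floor on every array. EMF2 itself was not analysed here, so the genotype was not checked on the arrays.

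IVD, MCCA and MCCB were lowest in WT and highest in rescued emf2, with transWT and emf2 in between. IVD had a signal of 322 for WT, 1021 for transWT, 1428 for emf2 and 2617 for rescued emf2. It was 4.43-fold higher in emf2 than in WT, 3.17-fold higher in transWT than in WT, and 8.12-fold higher in rescued emf2 than in WT. The nearest neighbours in this order, transWT and emf2, differed by a log2 ratio of 0.48, beyond the estimated error (SD) of 0.38 for that pair of arrays. A gap of this size does not settle their order.

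MCCA, the biotin-carrying subunit, read 318 for WT, 1449 for transWT, 1168 for emf2 and 2811 for rescued emf2. The ratio to WT was 4.55-fold in transWT, 3.67-fold in emf2 and 8.83-fold in rescued emf2. Here transWT was above emf2, the reverse of the order for IVD, but by a log2 ratio of 0.31, within the error of 0.38. In rescued emf2 over WT, 0.151% of the 14593 tested probe sets had a ratio as high as that of MCCA, and 0.185% one as high as that of IVD. Both genes were chosen with these values known, so nothing is read from these ranks.

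MCCB, the partner subunit, had the same order of arrays over a smaller range, with emf2 and transWT again within the error of each other (log2 0.06). Its signal was 674 for WT, 1139 for transWT, 1091 for emf2 and 2107 for rescued emf2. This made it 1.69-fold higher in transWT and 1.62-fold higher in emf2 than in WT, both within 2-fold, and 3.12-fold higher in rescued emf2. The subunits of this enzyme differed in the size of the difference: in rescued emf2 over WT the log2 ratio was 3.14 for MCCA and 1.64 for MCCB, a gap larger than the estimated error of either ratio.

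**Figure D1:**
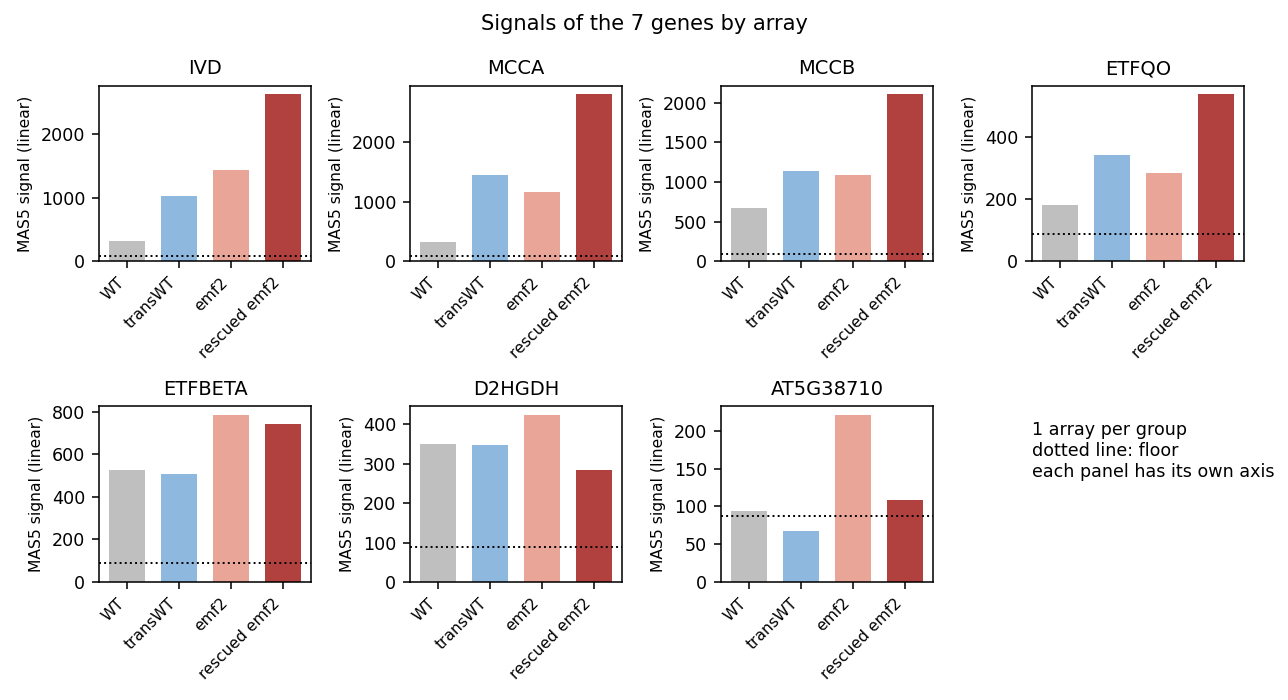
MAS5 signal (linear units, each panel with its own axis from 0) of the 7 genes on the WT, transWT, emf2 and rescued emf2 arrays, 1 array per bar; the dotted line is the floor of 87.6. IVD, MCCA, MCCB and ETFQO are lowest in WT and highest in rescued emf2. ETFBETA is higher on both arrays of the emf2 background, AT5G38710 is highest in emf2, and D2HGDH stays between 284 and 423.

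Among the electron carriers, ETFQO had the array order of the MCC subunits, and ETFBETA did not. ETFQO, the step into the respiratory chain, read 181 for WT, 343 for transWT, 285 for emf2 and 538 for rescued emf2. Rescued emf2 was 2.98-fold above WT, transWT 1.90-fold and emf2 1.58-fold, and transWT and emf2 were within the error of each other (log2 0.27). The transWT value sits near the threshold: it passed 2-fold after quantile normalization (log2 1.11), after cyclic loess (1.07) and with each array scaled to its median (1.08). ETFQO and MCCB had nearly the same profile. With each gene's log2 signals centred on their mean, the Euclidean distance between these genes over the 4 arrays was 0.18, the smallest of the 21 pairs of members, and the next smallest was 0.57, between IVD and MCCA.

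ETFBETA, a subunit of the flavoprotein that feeds ETFQO, read 526 in WT and 504 in transWT against 784 in emf2 and 739.8 in rescued emf2. It was higher on both arrays of the emf2 background, by 1.49-fold in emf2 over WT and 1.47-fold in rescued emf2 over transWT, each beyond the estimated error, though it lay within 2-fold in all 5 comparisons. The transgene with hygromycin went with almost no difference. The log2 ratio was -0.06 in transWT over WT and -0.08 in rescued emf2 over emf2, both smaller than the estimated error. The first of these turned positive under the other scalings, to between 0.015 and 0.098. ETFALPHA, its partner, is named here after seeing its values. It read 407 for WT, 316 for transWT, 657 for emf2 and 393 for rescued emf2. ETFALPHA was thus highest in emf2 and near WT in rescued emf2 (log2 ratio -0.05), whereas ETFBETA in emf2 and in rescued emf2 was within the error.

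D2HGDH, which breaks down D-2-hydroxyglutarate and can feed the same flavoprotein, was within 2-fold in every comparison, and no neighbours in its order differed beyond the error. It read 351 for WT, 347 for transWT, 423 for emf2 and 284 for rescued emf2. Its log2 ratio was 0.27 in emf2 over WT, about the estimated error, and -0.30 in rescued emf2 over WT. Its largest difference was between its highest and lowest arrays, a log2 ratio of -0.58 in rescued emf2 over emf2, beyond the error of 0.33. AT5G38710 lay near the floor on most arrays, with 94.5 for WT, 67.8 for transWT, 221 for emf2 and 109 for rescued emf2. The emf2 array stood alone: it was 2.34-fold above WT and 2.03-fold above rescued emf2, and rescued emf2 was within the error of WT (1.15-fold). The second of these values barely passed 2-fold, and with rescued emf2 over emf2 as the ratio it came to -0.95 after quantile normalization, -0.98 after cyclic loess and -0.98 with median scaling. In transWT it was below the floor, so its ratios to that array are bounds: transWT was at least 1.08-fold below WT and at least 1.24-fold below rescued emf2.

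Counted together, 4 of the 7 genes were lowest in WT and highest in rescued emf2, an order found in 8.78% of the 15111 probe sets above the floor on at least 1 array. In rescued emf2 over WT, 4 of 7 were at least 2-fold higher, against 5.91% of all tested probe sets, and none was 2-fold lower (9.9% of all). The median log2 ratio of the 7 was 1.57, and that of all tested probe sets -0.10. In emf2 over WT 3 of 7 were at least 2-fold higher, IVD, MCCA and AT5G38710 (7.34% of all tested), and 0 lower (11.1%), with a median of 0.69 against -0.05. In transWT over WT 2 of 7 were, IVD and MCCA (3.88%), and 0 lower (5.32%), with a median of 0.76 against -0.07. In rescued emf2 over emf2 MCCA was 2.41-fold higher (5.85%) and AT5G38710 lower (4.97%), with a median of 0.87 against -0.06. In rescued emf2 over transWT IVD was 2.56-fold higher (2.26%) and 0 were lower (2.99%), with a median of 0.65 against -0.03. The genes were chosen with these values known, so nothing is read from the shares. Seedlings are mixtures of tissues, and in such bulk RNA a change in the number of cells of a type and a change of RNA per cell cannot be told apart.

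**Figure D2:**
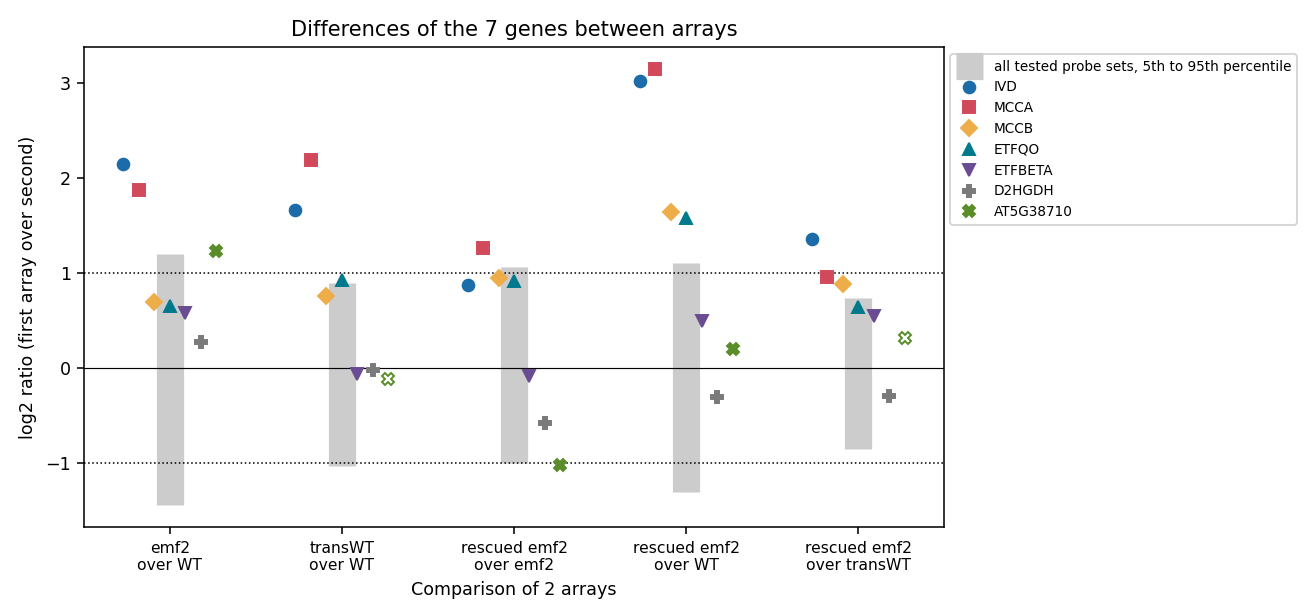
log2 ratio (first array over second) of the 7 genes in the 5 comparisons of 2 arrays; the grey bar spans the 5th to 95th percentile of all tested probe sets, dotted lines mark 2-fold, and open symbols are bounds set by the floor. MCCA (3.14) and IVD (3.02) reach the highest ratios, in rescued emf2 over WT, and D2HGDH stays within 2-fold throughout.

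Scaling shifts all genes together, and it bears on the background shares. With each array scaled to its median in place of a trimmed mean, the median log2 ratio of all tested probe sets moved from -0.05 to 0.15 in emf2 over WT, from -0.07 to 0.08 in transWT over WT and from -0.10 to 0.14 in rescued emf2 over WT. The share of 2-fold differences that were higher moved from 39.7% to 58.0%, from 42.2% to 60.3% and from 37.4% to 62.7% in these comparisons, and from 43.0% to 56.3% in rescued emf2 over transWT. After cyclic loess it was 52.5% in transWT over WT and 50.0% in rescued emf2 over WT, and after quantile normalization it was 49.3% in the latter.

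The 4 arrays allow each difference to be read in a second pair that shares no array with the first. IVD, MCCA, MCCB and ETFQO were lowest in WT and highest in rescued emf2. For such genes both pairs must show a higher value, for the emf2 background and for the transgene with hygromycin alike. Their shared direction is thus no separate support, and only the sizes are described. The emf2 background was read in emf2 over WT and in rescued emf2 over transWT. IVD was 4.43-fold higher in the first pair and 2.56-fold in the second, the only member past 2-fold in both, as were 1.49% of 13792 probe sets tested in both. MCCA was 3.67-fold and 1.94-fold higher, MCCB 1.62-fold and 1.85-fold, and ETFQO 1.58-fold and 1.57-fold. With the arrays scaled to their medians, MCCA passed 2-fold in the second pair too (log2 1.05).

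The transgene with hygromycin was read in transWT over WT and in rescued emf2 over emf2. MCCA was 4.55-fold higher in the first pair and 2.41-fold in the second, the only member past 2-fold in both, as were 1.99% of 13631 probe sets. IVD was 3.17-fold and 1.83-fold higher, MCCB 1.69-fold and 1.93-fold, and ETFQO 1.90-fold and 1.89-fold. After cyclic loess ETFQO passed 2-fold in the second pair (log2 1.01). In both pairs the transgenic array was also the one with brighter poly-A controls; the part of this in the ratios was not tested. Of the other members, ETFBETA and D2HGDH were within 2-fold in both pairs, and AT5G38710 was 2.03-fold lower in the second.

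**Figure D3:**
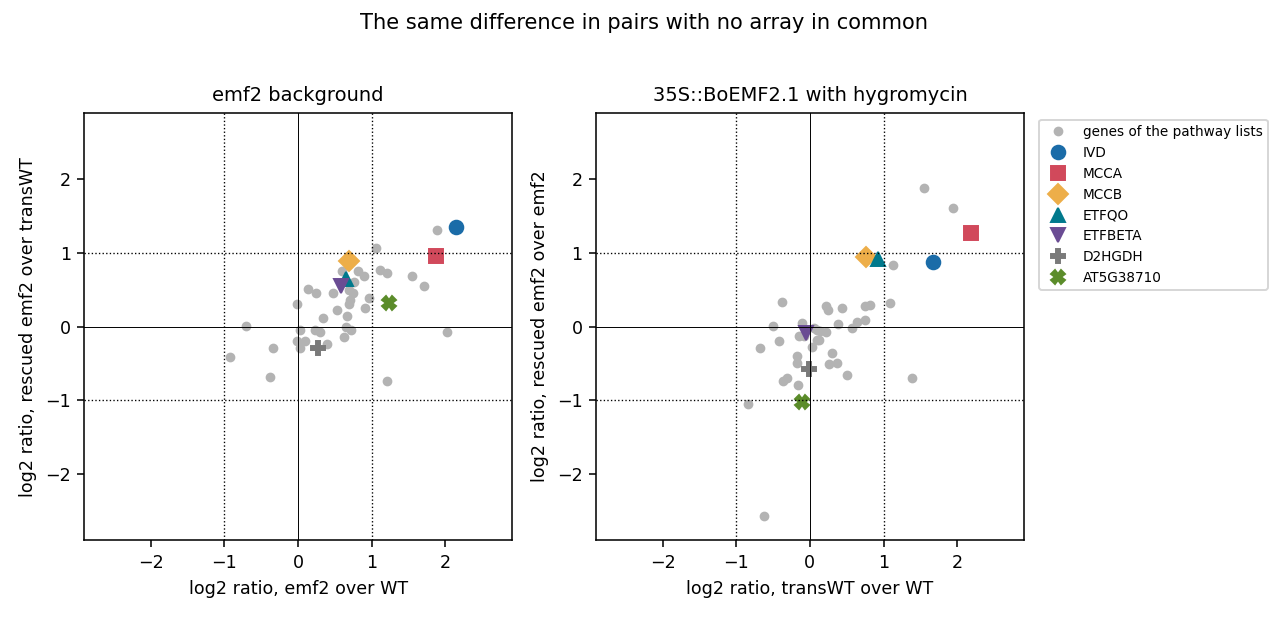
log2 ratios of the 7 genes (coloured) and of the tested genes of the pathway lists (grey) in pairs that share no array: left, emf2 over WT against rescued emf2 over transWT; right, transWT over WT against rescued emf2 over emf2. Dotted lines mark 2-fold. IVD lies past both lines on the left and MCCA on the right, while MCCB and ETFQO lie between 0.65 and 0.95 on all axes. That the ratios of these genes are all positive follows from their order of arrays.

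For MCCB and ETFQO the separate differences multiplied to about the joint one. The product of the emf2 and transWT ratios to WT was 3.0-fold for ETFQO, and rescued emf2 over WT was 2.98-fold; for MCCB the product was 2.73-fold against 3.12-fold measured. IVD and MCCA were below the product: 14.1-fold against 8.12-fold for IVD, and 16.7-fold against 8.83-fold for MCCA. On the log2 scale the departure from the product was -0.79 for IVD, -0.92 for MCCA and -0.56 for D2HGDH, with an estimated error of 0.36. It was -0.02 for ETFBETA. For AT5G38710 it came to -0.91, a bound because its transWT signal was below the floor. A lower value in transWT would make that departure less negative. None of the 7 departed by 2-fold or more, as 10.3% of the 15111 probe sets did. The median departure was -0.56 over the 7 genes and 0.02 over all. The departure rests on 1 array per group and has no test.

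**Figure D4:**
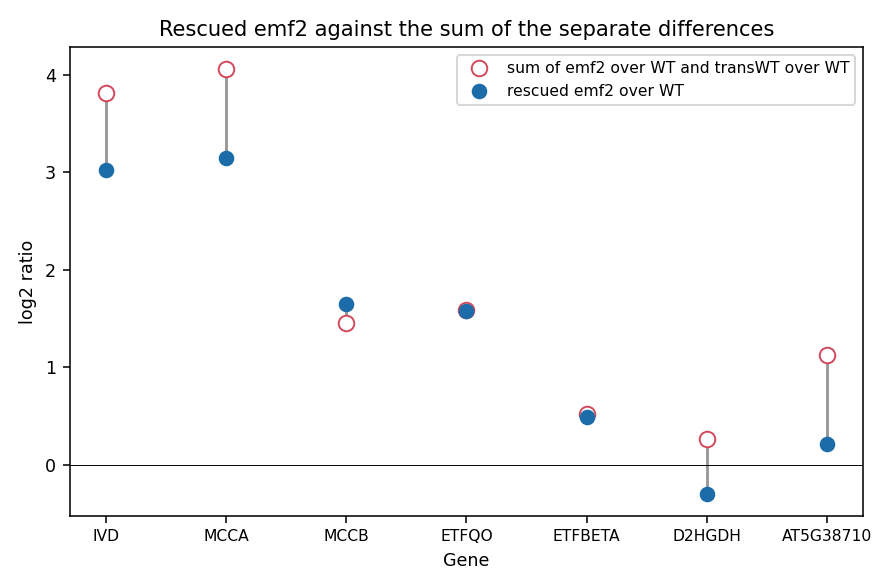
For each of the 7 genes, the log2 ratio of rescued emf2 over WT (filled) and the sum of the log2 ratios of emf2 over WT and transWT over WT (open). The points nearly coincide for ETFQO and ETFBETA, and the filled point is lower for IVD (departure -0.79) and MCCA (-0.92). The open point of AT5G38710 is a bound set by the floor in transWT.

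Neighbouring pathways were followed through 10 gene lists with 143 genes, of which 41 have a probe set named here and are not members. In emf2 over WT, 39 of them were tested, and 8 were at least 2-fold higher and 0 lower. The counts were 5 higher and 0 lower in transWT over WT, 2 and 2 in rescued emf2 over emf2, 9 and 1 in rescued emf2 over WT, and 2 and 0 in rescued emf2 over transWT. The background shares are those given above. By list, the genes at least 2-fold higher in rescued emf2 over WT were 2 of 3 for other amino acid breakdown, 1 of 1 for proline, 2 of 3 for sugar starvation and bZIP regulators, 1 of 2 for peroxisomal beta-oxidation and the glyoxylate cycle, 2 of 8 for senescence and autophagy and 1 of 9 for electron transfer and respiration. They were 0 of 4 for the rest of branched-chain breakdown, 0 of 5 for the TCA cycle and 0 of 4 for branched-chain synthesis, whose 1 lower gene was the only one in this comparison. No gene of the biotin supply list has a named probe set. Each list stands for its few tested genes alone.

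Of the other branched-chain breakdown genes, 4 of 15 were tested. AT2G26800, listed there without a gene name in the tables used, read 516 for WT, 1097 for transWT, 797 for emf2 and 997 for rescued emf2. It was 2.13-fold higher in transWT than in WT, and in rescued emf2 over WT its log2 ratio of 0.95 passed 2-fold after quantile normalization (1.04) and scaling to the median (1.20). AT4G20930 read 156 for WT, 65.2 (below the floor) for transWT, 291 for emf2 and 140 for rescued emf2, which put rescued emf2 2.07-fold below emf2; that log2 ratio was -0.97 under quantile normalization and -0.98 under cyclic loess. ALDH6B2, a methylmalonate-semialdehyde dehydrogenase of valine breakdown named here after seeing its values, was within 2-fold throughout, at 2036 in WT and 3191 in rescued emf2. The list's median log2 ratio was 0.61 in emf2 over WT, -0.14 in transWT over WT, -0.37 in rescued emf2 over emf2, 0.25 in rescued emf2 over WT and 0.27 in rescued emf2 over transWT.

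In the electron transfer and respiration list, 9 of 16 genes were tested, with a median of 0.72 in emf2 over WT and 0.09 in transWT over WT. NDB2, an NADH dehydrogenase that bypasses complex I, read 677 for WT, 1141 for transWT, 1560 for emf2 and 1894 for rescued emf2, the same order as IVD. Rescued emf2 was 2.80-fold above WT. SDH2-2, an iron-sulfur subunit of succinate dehydrogenase, read 1064 in WT and 959 in transWT against 2204 in emf2 and 2010.1 in rescued emf2, and so had a log2 ratio of 1.05 in emf2 over WT and of 1.07 in rescued emf2 over transWT. With the transgene and hygromycin its log2 ratios were -0.15 and -0.13. In the TCA cycle list none of 5 tested genes passed 2-fold in any of the 5 comparisons: IDH-V, a subunit of isocitrate dehydrogenase, reached a log2 ratio of 0.74 in emf2 over WT, and AT5G65750 one of -0.68 in rescued emf2 over transWT.

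In the list for the breakdown of other amino acids, 3 of 22 genes were tested. The lysine-breaking enzyme LKR/SDH (AT4G33150) read 209 for WT, 326 for transWT, 769.9 for emf2 and 807 for rescued emf2, which put emf2 3.69-fold and rescued emf2 3.86-fold above WT. Methionine gamma-lyase, MGL, differed with the transgene and hygromycin: at 164 in WT and 162 in emf2 it was 480.0 in transWT and 596 in rescued emf2. With transgene and hygromycin it was 2.93-fold higher in the wild type and 3.67-fold higher in the mutant. DELTA-OAT, ornithine aminotransferase and the only tested gene of the proline list, read 292 for WT, 382 for transWT, 632 for emf2 and 649 for rescued emf2, and was 2.16-fold higher in emf2 than in WT. LKR/SDH and DELTA-OAT were thus past 2-fold over WT on both arrays of the emf2 background, and MGL on both transgenic arrays.

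Of the sugar starvation and bZIP list, 3 of 19 genes were tested. AKINBETA1, a regulatory subunit of the energy-sensing kinase SnRK1, read 709 for WT, 2724 for transWT, 1150 for emf2 and 3497 for rescued emf2, in the same order as MCCA, and rescued emf2 was 4.93-fold above WT. The transcription factor gene bZIP44 was highest in emf2 (1521, against 519 in WT, 668 in transWT and 1079 in rescued emf2). BZIP53, whose protein binds promoters of amino acid breakdown genes and which is named here after seeing its values, read 2223 for WT, 3913 for transWT, 3531 for emf2 and 4341 for rescued emf2, within 2-fold in all comparisons; with the arrays scaled to their medians it passed 2-fold in rescued emf2 over WT (1.22).

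In the list for peroxisomal beta-oxidation and the glyoxylate cycle, where 2 of 15 genes were tested, isocitrate lyase, ICL, a gene of seed oil use, read 445 for WT, 1167 for transWT, 1801 for emf2 and 1108 for rescued emf2. In the senescence and autophagy list 8 of 15 were tested, with a median log2 ratio of 0.68 in rescued emf2 over WT. ATG8E, a ubiquitin-like protein of the autophagosome, read 1234 for WT, 2707 for transWT, 1776 for emf2 and 3176 for rescued emf2, 2.57-fold higher in the last than in WT. Its relative ATG8B was highest in emf2, at 1014 against 310 in WT. The genes of branched-chain synthesis, the opposite pathway, had a median of -0.65 in rescued emf2 over WT, and 1 of 4 passed 2-fold: BCAT4 was 2.58-fold lower. BCAT4 is known for lengthening the methionine chain toward glucosinolates rather than for making leucine. The other tested genes of that list were within 2-fold: AT3G58610 at -0.06, ATBCAT-5 at -0.40 and AT3G23940 at -0.91.

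**Figure D5:**
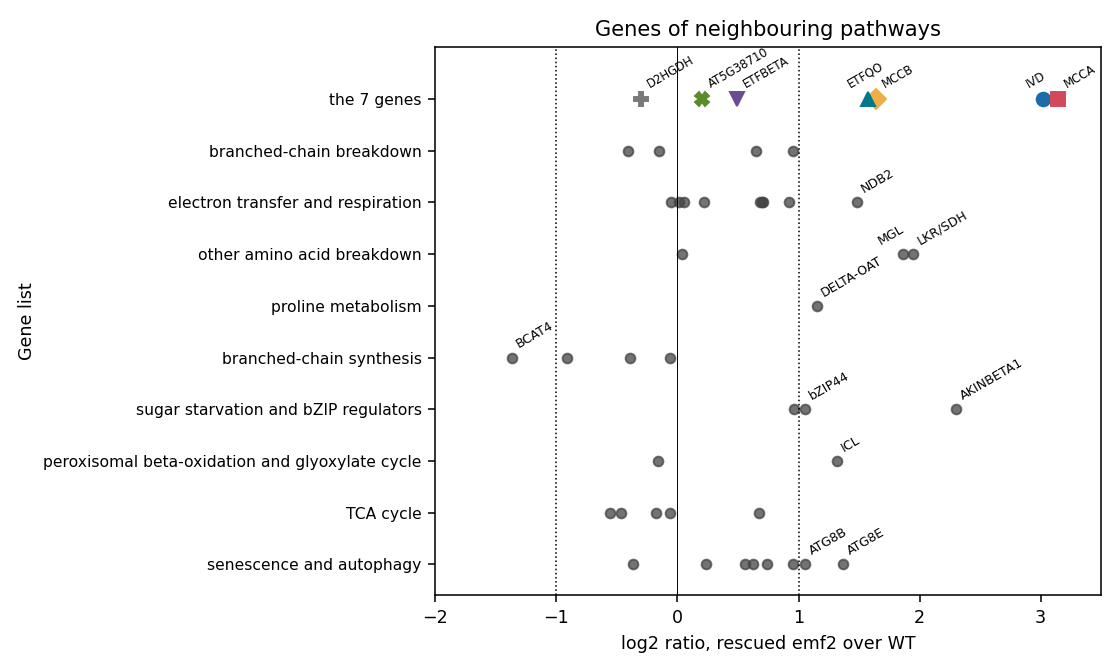
log2 ratio of rescued emf2 over WT for the 7 genes (top row, coloured symbols) and for each tested gene of 9 pathway lists (grey points), with dotted lines at 2-fold and names beside list genes past it. AKINBETA1 (2.30) has the highest ratio among the list genes and BCAT4 (-1.37) the lowest; MCCA (3.14) and IVD (3.02) lie beyond all of them.

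Genes near the median profile of the 7 were sought. The 7 genes' median profile, in log2 units about its mean, was -0.77 for WT, -0.02 for transWT, 0.28 for emf2 and 0.78 for rescued emf2. It does not describe ETFBETA, D2HGDH and AT5G38710, whose highest signal was in emf2, for ETFBETA and D2HGDH within the error of the next array. Among 7511 other named genes above the floor on at least 2 arrays, the 10 nearest by Euclidean distance over the 4 arrays were AT1G61667 (0.17), AT5G12010 (0.18), AT5G67490 (0.21), NDB2 (0.21), STR18 (0.24), AT3G61980 (0.24), AT5G17650 (0.24), UBC18 (0.24), AT1G18210 (0.25) and AT1G66760 (0.27). STR18 is a sulfurtransferase and UBC18 a ubiquitin-conjugating enzyme. STR18 read 295 for WT, 590.0 for transWT, 675 for emf2 and 1008 for rescued emf2, and AT5G67490 read 1068, 1676, 2379 and 3012 in the same order. In all 10 rescued emf2 was 2.43-fold to 3.42-fold above WT, which follows from choosing them by this profile. With 4 points a profile is short, and likeness over it is a description.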

How the data were processed

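Per the labels' protocols, 10 µg of seedling total RNA from each group was labelled as biotinylated cRNA, and each group was hybridised to 1 Affymetrix array. The deposited values are intensity on a linear scale, which the authors computed per probe set; the submitters' processing notes name MAS5, with version and settings not given in the sources used here. MAS5 subtracts mismatch signals, which makes dim probe sets noisy. The 2%-trimmed mean of each deposited array came to 500, which shows that scaling took place before deposit. Arrays have no depth in counts, and their number limits the precision.

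Each array was rescaled to 1 trimmed mean, signals were floored at 87.6 and log2 ratios taken between single arrays; below the floor on both arrays, a probe set was not tested. Counts leave out 64 control probe sets. Gene names come from the platform annotation (13513 probe sets with 1 gene, 13436 of them matched to TAIR10.1 names); a gene with several is represented by the brightest. Named genes are the 7 members, up to 4 genes per list past 2-fold in any comparison (up to 2 where none passed) and the 10 nearest profiles. Members and lists were chosen with earlier results of these data known. The ratio step was tested on simulated data. The scaling was replaced by none (deposited values), by median scaling, by quantile normalization or by cyclic loess (limma 3.58.1). The floor was moved to percentile 25 or 60, or left out with 1 added to each signal, and the threshold was moved to 1.5-fold or 3-fold.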

Additional observations from a re-analysis of the deposited data

Results flagged for a closer look

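Of the 7 members and the 41 list genes, 5 list genes and no member had log2 ratios of opposite sign for the same difference in pairs without a common array, both beyond the estimated error of a ratio. IVD, MCCA, MCCB and ETFQO could not have opposite signs, given their order of arrays. Each of the 5 rests on 1 array per group, and the difference was not tested. The share of all probe sets with such opposite signs was not counted, so nothing is read from these counts. BCAT4 was higher in emf2 than in WT (1.21) and lower in rescued emf2 than in transWT (-0.74), a difference of -1.95. The other 4 concern the transgene with hygromycin, in transWT over WT and then in rescued emf2 over emf2. ICL went from 1.39 to -0.70 (difference -2.09), ATG8B from 0.50 to -0.66 (-1.16), bZIP44 from 0.36 to -0.50 (-0.86) and SAG101, a lipase-like protein of senescence and defense, from -0.38 to 0.34 (0.72).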

How the results depend on the processing

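No paired analysis was possible because each group has 1 array, and no array could be left out. No ratio of the 7 genes past 2-fold changed sign. In transWT over WT the small log2 ratios did: D2HGDH went from -0.014 to 0.11 after quantile normalization, 0.12 after cyclic loess and 0.14 with median scaling, and ETFBETA from -0.06 to 0.02, 0.015 and 0.098. Of 245 log2 ratios of single members under 7 alternatives, 236 moved by less than the estimated error, and 10 changed sides of 2-fold; those under the scalings are given with the genes. With the floor at the 60th percentile AT5G38710 lay below it on every array (log2 ratio 0), and the median log2 ratio of the 7 was 0.41 in transWT over WT and 1.06 in rescued emf2 over WT, and the median departure from the product was -0.025, since signals below a higher floor are levelled. With the arrays scaled to their medians 2 members were 2-fold higher in rescued emf2 over transWT (423 of 14345 tested probe sets). After cyclic loess 2 were in rescued emf2 over emf2 (892 of 14333). At 1.5-fold the count was 5 in emf2 over WT, beside 2446 of 14653 tested probe sets. It was 4 in each of transWT over WT (1599 of 14620), rescued emf2 over emf2 (1938 of 14122) and rescued emf2 over transWT (1213 of 14250). At 3-fold it was 0 for rescued emf2 over emf2 (273 of 14122) and over transWT (72 of 14250). Nothing is read from these counts. MGL in transWT over WT (0.89) and AT4G20930 in rescued emf2 over emf2 (-0.17) lay within 2-fold with the floor at the 60th percentile. Without a floor or with it at the 25th percentile AT4G20930 passed 2-fold in transWT over WT (-1.25 and -1.26). Signals near the floor limit what can be said of AT5G38710.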
